A study of Mus musculus with 6 samples.

Results

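The genes described here are 9 transducers of cytokine signals, taken from the 56748 genes measured in mouse uterus on day 4 of pregnancy. They are the Janus kinases *Jak1*, *Jak2*, *Jak3* and *Tyk2*, the transcription factors *Stat2*, *Stat3*, *Stat4* and *Stat6*, and *Ptpn11*, which encodes the phosphatase SHP2. The rule names them by family and symbol, STAT5 apart, and uses no measured value, though earlier results of these data were known when it was set. All 9 passed the filter on low counts.

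The uteri came from 3 control and 3 *Gp130* ecKO females and were taken whole at 1600 h on day 4, before embryo attachment. All females were labelled C57BL/6 (C57BL/6J in the methods), were over 8 weeks old, had mated, and received no treatment named in the labels. *Gp130* ecKO females were *Ltf* iCre/+; *Gp130* flox/flox, so that iCre driven from the *Ltf* locus removes *Gp130* in uterine epithelium. The labels give the control genotype as WT, and the methods allow either *Ltf* +/+; *Gp130* flox/flox or wildtype females. The floxed allele may therefore be present or absent in a control uterus, and the iCre allele was carried by *Gp130* ecKO alone. *Ltf* is also active in some neutrophils and macrophages, which limits how strictly epithelial the deletion is. The labels name a separate uterus for each library.

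Cytokine receptors have no kinase of their own and carry JAK kinases on their tails. When a ligand such as LIF joins its receptor chains, among them GP130, the kinases phosphorylate the receptor, STAT proteins dock there, are phosphorylated in turn, pair up and enter the nucleus. In the uterus before implantation, LIF from the glands acts on the epithelium through LIFR, GP130 and STAT3, and SHP2 links the same receptors to the RAS pathway. RNA levels say nothing of phosphorylation, which is how these proteins are switched on.

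Depth ranged from 13960748 expected counts, in control 3, to 25906443. The deleted gene itself, listed as *Il6st*, was at 631.1, 678.1 and 451.6 CPM (its count per library size after TMM scaling) in the controls, given here and elsewhere in the order of their numbers, against 387.7, 349.8 and 361.8 in the *Gp130* ecKO uteri. Control 2 stood between the groups. Across genes, its log2 CPM correlated at 0.9263 to 0.9516 with the *Gp130* ecKO uteri and at 0.9233 and 0.9407 with the other controls. Calls that changed without control 2 are therefore given beside the results. Summed CPM of 12 epithelial markers was 2622 to 4399 in the control and 6037 to 8143 in *Gp130* ecKO, that of 12 stromal markers 4799 to 6064 against 2643 to 3823, and that of 8 endothelial markers 451.2 to 1135 against 244.2 to 444.6. Summed CPM of 8 smooth muscle markers spread widely within each group and overlapped, at 611.1 to 2913 in the control and 507.7 to 3102 in *Gp130* ecKO. No marker of these lists was at 0 in all uteri. In whole uterus, fewer cells of a type and less RNA per cell cannot be told apart.

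*Jak2* was 2.17-fold higher in *Gp130* ecKO, *Jak3* was 2.63-fold lower and *Stat3* was 1.76-fold lower, with no overlap between the uteri of the groups. These 3 had an unadjusted p under 0.05 in edgeR's quasi-likelihood test, and none passed after adjustment over 16605 genes. *Tyk2* was slightly higher without overlap, and *Jak1*, *Stat2*, *Stat4*, *Stat6* and *Ptpn11* overlapped between the groups. So 0 of 9 members were called (FDR under 0.05 and more than 2-fold), where 0.157% of all tested genes were. At an unadjusted p under 0.05 there were 3 of 9, against 25.0% of all tested genes. CPM did not overlap in 4 of 9, against 31.3% of all tested genes. With 9 members these shares lie near those of all tested genes, and nothing particular to the family can be read from them. Other tests called more genes. The exact test of edgeR called 1 member (*Jak3*) and 7.54% of all tested genes, its likelihood ratio test 1 (*Jak3*) and 7.93%, and DESeq2 2 (*Jak2* and *Jak3*) and 9.29%. Without control 2 the quasi-likelihood test called 2 members (*Jak2* and *Jak3*) and 5.20% of the genes, and CPM did not overlap in 7 of 9 members and 45.6% of the genes.

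**Figure D1:**
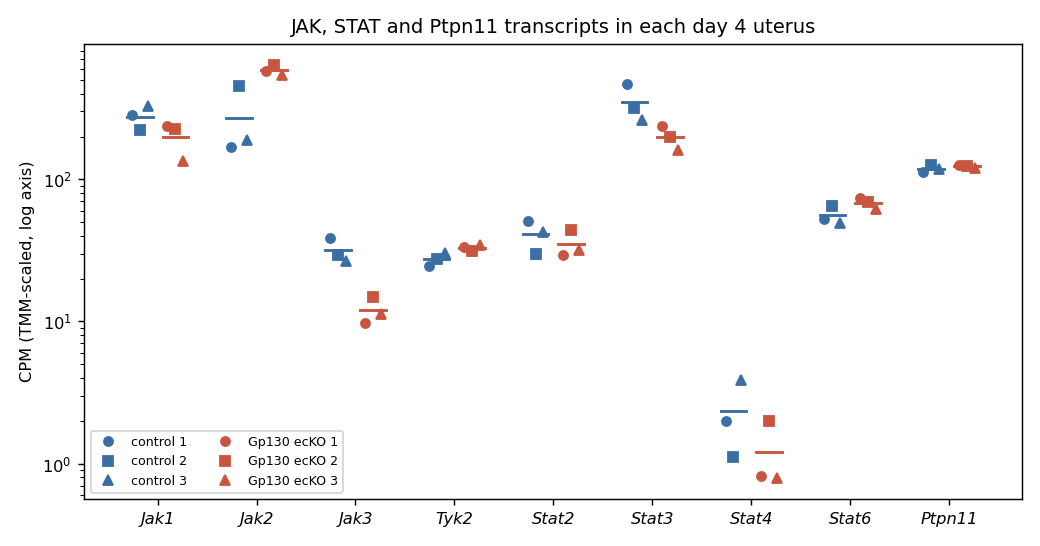
CPM of the 9 members (log axis) in each control (blue) and *Gp130* ecKO uterus (red), with the symbol giving the uterus number and the bar the group mean. *Jak2* lies higher, and *Jak3* and *Stat3* lie lower, in every *Gp130* ecKO uterus, and control 2 is the control nearest to *Gp130* ecKO for *Jak2*.

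*Jak2* serves GP130 receptors and the receptors of interferon gamma, growth hormone and prolactin. It lies on chromosome 19 of GRCm39 (29228677 to 29290505, plus strand, ENSMUSG00000024789). Its level was 167.5, 454.6 and 190.2 CPM in the controls against 573.7, 640.7 and 545.7 CPM in the *Gp130* ecKO uteri. The *Gp130* ecKO uteri were close together, while control 2 was well above the other controls and still under every *Gp130* ecKO uterus. The means were 270.8 ± 160.0 and 586.7 ± 48.8 (SD, n = 3 each). That is a log2 fold change of 1.12 (SE 0.38, adjusted p = 0.141 with edgeR's quasi-likelihood test, 0.0143 to 0.314 over 16 alternatives). It was 1.75 without control 2, with an adjusted p of 0.0143 from the same edgeR test, and DESeq2 gave 1.13 with an adjusted p of 0.0435. Without any other uterus it was between 0.89 and 1.19, with adjusted p of 0.209 to 0.314. Read counts of 2852 to 16661 lay behind these values, so counting error was small beside the spread between uteri. The exact permutation test gave p = 0.1, the smallest that 3 uteri against 3 allow. Epithelial markers were higher in the same uteri, and their part in the *Jak2* difference was not tested.

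*Jak3* works with the common gamma chain receptors of lymphocytes. It lies on chromosome 8 (72123007 to 72143225, plus strand, ENSMUSG00000031805). Its CPM was 38.7, 29.3 and 26.7 in the controls and 9.81, 14.8 and 11.3 in the *Gp130* ecKO uteri. Each of these was well under the lowest control, and control 2 lay with the other controls here. The means were 31.6 ± 6.33 and 12.0 ± 2.56 (SD, n = 3 each). The log2 fold change of −1.40 (SE 0.25) ranked 165th of 16605 genes by p and had an adjusted p of 0.0636 with edgeR's quasi-likelihood test. The adjusted p was 7.88e-05 to 0.193 over the alternatives, with the lowest from DESeq2 and the highest without *Gp130* ecKO 1, while the log2 fold change stayed between −1.57 and −1.20. With edgeR the adjusted p was 0.0464 without control 2 and 0.112 to 0.193 without any other uterus. The 15 T and NK cell markers tested were all lower in *Gp130* ecKO, with a median log2 fold change of −0.38 and none at an unadjusted p under 0.05, and their summed CPM of 94.3 to 135.2 in the control overlapped with 36.4 to 124.6. Of the 5 tested neutrophil markers 4 were lower and 3 had an unadjusted p under 0.05 and no overlap, against 25.0% and 31.3% of all tested genes, and none was at FDR under 0.05. Summed CPM of all 7 listed neutrophil markers, tested or not, was low in every uterus. It did not overlap, at 5.93 to 9.45 in the controls against 1.22 to 4.64 in the *Gp130* ecKO uteri. Of 10 macrophage markers 7 were lower, with a median of −0.58, and their summed CPM of 518.7 to 592.1 overlapped with 438.0 to 654.7. All 8 endothelial markers were lower too, with a median of −1.23, and their summed CPM did not overlap, at 451.2 to 1135 against 244.2 to 444.6. All 12 stromal markers were lower (median −0.79), and 11 of 12 epithelial markers were higher. The part of any of these cells in the *Jak3* difference was not tested.

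Of the 75-base stretches of annotated *Jak3* transcripts, 5.4% also occur on the same strand in *Insl3*, its neighbour, and 10.9% occur on the opposite strand in *B3gnt3*. The sources do not state whether strand was used in counting, so reads of such stretches could be divided between these genes. *Insl3* was at 3.03, 1.58 and 2.53 CPM against 0.814, 0.923 and 1.04, far under *Jak3*. *B3gnt3* was at 48.9, 33.9 and 16.5 CPM against 18.5, 35.0 and 36.0, with the groups overlapping.

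*Jak1*, the kinase shared by GP130, interferon and common gamma chain receptors, lies on chromosome 4 (101008838 to 101122487, minus strand, ENSMUSG00000028530). Controls gave 281.8, 220.9 and 326.8 CPM, and *Gp130* ecKO gave 238.1, 226.3 and 135.1. Control 2 was under 2 of the *Gp130* ecKO uteri, and *Gp130* ecKO 3 was the lowest of all. The difference on the log2 scale was −0.47 (SE 0.26, adjusted p = 0.299 with edgeR's quasi-likelihood test). Of its 75-base stretches, 14% occur on the opposite strand in *Raver2*, a gene at 8.33 to 9.1 CPM in the controls that read 29.9, 7.88 and 8.66 in the *Gp130* ecKO uteri.

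*Tyk2*, which serves the receptors of type I interferon, IL-10 and IL-12, lies on chromosome 9 (21015363 to 21042689, minus strand, ENSMUSG00000032175). Controls gave 24.6, 27.3 and 30.2 CPM, and *Gp130* ecKO gave 33.5, 31.3 and 34.3. The groups lay side by side, with 30.2 and 31.3 as the nearest values. The difference on the log2 scale was 0.27 (SE 0.17, adjusted p = 0.348 with edgeR's quasi-likelihood test). The groups overlapped once libraries were scaled by the upper quartile or by total counts alone.

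The groups overlapped in the sum of the JAK transcripts and did not overlap in the shares of *Jak1*, *Jak2* and *Jak3* in it. TPM, the authors' level per length and depth, was used to compare genes, and these sums and shares were chosen after the values were seen. Summed TPM of the 4 kinases was 133.5, 198.0 and 168.8 in the controls against 254.1, 296.5 and 187.5 in the *Gp130* ecKO uteri. *Jak2* made up 31.3%, 60.5% and 31.9% of that sum in the controls against 67.2%, 70.5% and 74.3% in the *Gp130* ecKO uteri. *Jak1* made up 53.8%, 30.2% and 56.4% against 27.2%, 23.9% and 18.5%. *Jak1* was thus the most abundant kinase in controls 1 and 3, and *Jak2* in control 2 and all *Gp130* ecKO uteri. *Jak3* made up 9.51%, 5.09% and 5.82% against 1.44%, 2.01% and 2.02%. It was above *Tyk2* in controls 1 and 2 and below it in the other uteri, while the share of *Tyk2* overlapped between the groups. The shares of a sum are not independent, and they are given with no test.

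**Figure D2:**
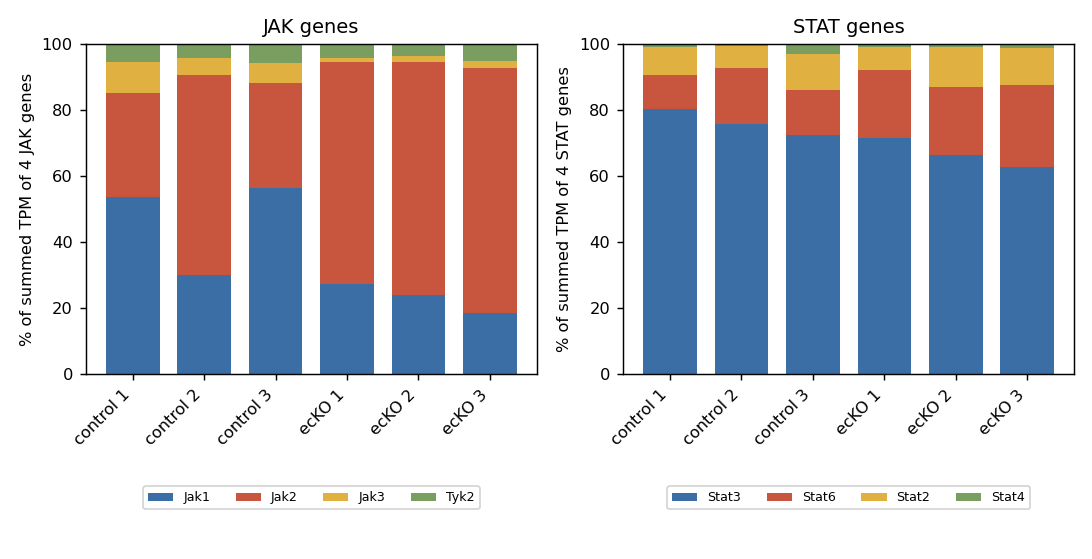
Stacked bars give the percentage of the summed TPM of the 4 JAK genes (left) and the 4 STAT genes (right) that each gene made up in each uterus. *Jak2* took 67.2% to 74.3% of the JAK sum in *Gp130* ecKO, and control 2 lay near them at 60.5%.

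*Stat3* carries the signal of LIF and the IL-6 family to the nucleus. It lies on chromosome 11 (100775924 to 100830450, minus strand, ENSMUSG00000004040) beside the STAT5 genes. Its level was 468.3, 319.6 and 262.3 CPM in the controls against 238.1, 196.9 and 161.5 CPM in the *Gp130* ecKO uteri. The controls spread widely, and the lowest control was only a little above the highest *Gp130* ecKO uterus. The means were 350.1 ± 106.0 and 198.8 ± 38.3 (SD, n = 3 each). That is a log2 fold change of −0.82 (SE 0.26, adjusted p = 0.125 with edgeR's quasi-likelihood test, 0.0547 to 0.282 over the alternatives). It was −0.52 without control 1, the uterus that moved it most, and −0.85 without control 2. In TPM the difference was smaller, at 139.5, 107.2 and 106.1 against 100.2, 95.5 and 52.6, still without overlap. Stromal and endothelial markers were lower in the same uteri, and their part was not tested.

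*Stat6*, the factor of IL-4 and IL-13, lies on chromosome 10 (127477821 to 127496862, plus strand, ENSMUSG00000002147). Controls gave 52.3, 65.3 and 49.5 CPM, and *Gp130* ecKO gave 74.2, 69.3 and 61.4. Only control 2 and *Gp130* ecKO 3 crossed. The difference on the log2 scale was 0.29 (SE 0.17, adjusted p = 0.324 with edgeR's quasi-likelihood test). As a share of the summed TPM of the 4 STAT genes, *Stat6* made up 10.2%, 16.8% and 13.8% in the controls against 20.6%, 20.5% and 24.9% in the *Gp130* ecKO uteri, while *Stat3* made up 80.3%, 75.9% and 72.3% against 71.4%, 66.4% and 62.7%. *Stat3* was the most abundant STAT of the 4 in every uterus.

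*Stat2*, the partner of IRF9 in the interferon-activated complex ISGF3, lies on the same chromosome (128106352 to 128128735, plus strand, ENSMUSG00000040033). Controls gave 50.9, 30.0 and 42.9 CPM, and *Gp130* ecKO gave 29.3, 44.3 and 31.9, so each group had high and low uteri. The difference on the log2 scale was −0.23 (SE 0.26, adjusted p = 0.595 with edgeR's quasi-likelihood test).

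*Stat4*, which carries the IL-12 signal in T and NK cells, lies on chromosome 1 (52026307 to 52151423, plus strand, ENSMUSG00000062939). It was the least abundant member, with 18 to 58 expected counts per uterus, at 1.98, 1.12 and 3.87 CPM against 0.814, 2.0 and 0.788. The groups overlapped. Its log2 fold change of −0.89 (SE 0.60, adjusted p = 0.377 with edgeR's quasi-likelihood test) could not be told from no difference in these uteri. It ranged from −1.49 without *Gp130* ecKO 2 to −0.36 without control 3. Its transcripts share 8.35% of their 75-base stretches with *Gm28177* on the same strand and 27.8% with *Gm31812* on the opposite strand, so this value is the least certain. *Gm28177*, at a level near that of *Stat4*, had 0.809, 1.0 and 0.533 CPM against 0.904, 2.12 and 1.91, with the groups overlapping. *Gm31812* had 0.0405, 0.27 and 0.267 CPM against 0.316, 0.461 and 0.29.

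*Ptpn11* lies on chromosome 5 (121268596 to 121329496, minus strand, ENSMUSG00000043733). It was the steadiest member in CPM, at 112.7, 125.5 and 118.4 against 126.0, 124.6 and 120.1. Its log2 fold change was 0.06 (SE 0.14, adjusted p = 0.82 with edgeR's quasi-likelihood test) but −0.01 with upper quartile scaling, so no direction is given. The estimated mean length of its transcripts did separate the groups, at 5569, 4853 and 4717 bases in the controls against 4358, 4034 and 4620 in the *Gp130* ecKO uteri. RSEM weights the annotated transcripts by their estimated abundance to give that length. It also separated the groups for *Jak2* (5020, 4998 and 4969 bases against 4746, 4695 and 4919), *Jak3* and *Tyk2*, so for 4 of 9 members against 19.4% of the genes whose length varied. The shift was under 0.1 on the log2 scale for *Jak2*, *Jak3* and *Tyk2* and −0.22 for *Ptpn11*. It was −0.16 for *Stat3* and −0.18 for *Stat4*, whose lengths overlapped between the groups. In TPM, which is scaled for length, *Ptpn11* was less steady, at 25.3, 34.1 and 35.3 in the controls against 40.9, 47.4 and 32.7 in the *Gp130* ecKO uteri, with overlap. Which transcripts differed was not analysed here.

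**Figure D3:**
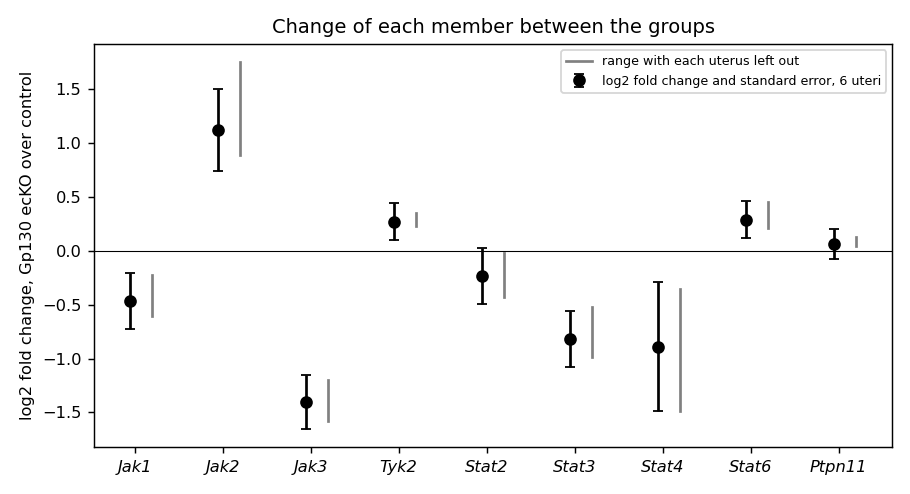
Log2 fold change of each member, *Gp130* ecKO over control, from edgeR (points) with its standard error (bars), and beside it the range when each of the 6 uteri was left out (grey lines). The range for *Jak2* reaches 1.75, the value without control 2, and every range but those of *Stat2* and *Ptpn11* stays clear of 0 by more than 0.2.

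To set the promoters beside these values, the 300 bases before the start of the canonical transcript of each member were searched for TTCNNNGAA, the palindromic core that STAT dimers recognise. The motif reads the same on both strands. It occurred in 2 of 9 members, *Jak2* and *Tyk2*, against 9.20% of 21757 promoters of the same length. The windows of the 4 members whose CPM did not overlap are printed from GRCm39, from 300 to 51 bases before the start and on the strand of the gene, with the motif in capitals.
Jak2, chr19:29228377-29228626, plus strand: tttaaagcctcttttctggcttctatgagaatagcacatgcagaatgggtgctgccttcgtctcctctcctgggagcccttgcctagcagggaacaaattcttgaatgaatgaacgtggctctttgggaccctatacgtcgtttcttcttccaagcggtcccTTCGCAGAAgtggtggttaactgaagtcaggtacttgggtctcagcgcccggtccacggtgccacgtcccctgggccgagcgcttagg
Tyk2, chr9:21042740-21042989, minus strand: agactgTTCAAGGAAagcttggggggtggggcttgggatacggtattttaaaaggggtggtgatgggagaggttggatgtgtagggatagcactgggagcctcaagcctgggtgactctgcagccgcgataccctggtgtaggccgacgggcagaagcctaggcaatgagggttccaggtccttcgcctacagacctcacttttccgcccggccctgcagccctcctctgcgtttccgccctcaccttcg
Jak3, chr8:72128392-72128641, plus strand: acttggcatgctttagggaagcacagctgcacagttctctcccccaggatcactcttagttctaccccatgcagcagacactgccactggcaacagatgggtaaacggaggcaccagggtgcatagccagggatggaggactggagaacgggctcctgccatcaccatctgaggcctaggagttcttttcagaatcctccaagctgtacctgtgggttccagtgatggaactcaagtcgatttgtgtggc
Stat3, chr11:100830478-100830727, minus strand: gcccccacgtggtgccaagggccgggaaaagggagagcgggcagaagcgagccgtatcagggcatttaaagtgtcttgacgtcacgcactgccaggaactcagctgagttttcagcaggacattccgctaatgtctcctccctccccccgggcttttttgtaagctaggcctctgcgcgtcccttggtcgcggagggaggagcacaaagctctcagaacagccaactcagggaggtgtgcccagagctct
The *Jak2* match, TTCGCAGAA, lies 138 to 130 bases before its start, and the *Tyk2* match, TTCAAGGAA, lies 294 to 286 bases before its start. The canonical starts of *Jak3* and *Stat3* are not their most upstream annotated starts. The windows of *Jak2*, *Tyk2* and *Stat3* also lie within annotated exons of other genes (*Gm59364*, *Gm69642* and *Gm46295*). A match is a sequence of letters and not evidence of binding, and its absence from the *Jak3* and *Stat3* windows speaks for these windows alone.

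Ranked by mean TPM, the order in the control was *Stat3* (117.6 ± 19.0), *Jak1* (75.6 ± 17.9), *Jak2* (71.8 ± 42.0), *Ptpn11* (31.6 ± 5.48), *Stat6* (20.6 ± 2.99), *Stat2* (13.6 ± 3.58), *Jak3* (10.9 ± 1.59), *Tyk2* (8.46 ± 1.44) and *Stat4* (2.14 ± 1.87; SD, n = 3 throughout). Of its 8 neighbouring pairs, 5 kept their order in all 3 controls. *Jak1* and *Jak2*, *Stat2* and *Jak3*, and *Jak3* and *Tyk2* each swapped in 1 control. In *Gp130* ecKO the order was *Jak2* (173.0 ± 34.9), *Stat3* (82.8 ± 26.2), *Jak1* (58.2 ± 20.4), *Ptpn11* (40.3 ± 7.39), *Stat6* (26.4 ± 4.75), *Stat2* (12.3 ± 4.39), *Tyk2* (10.4 ± 0.567), *Jak3* (4.47 ± 1.29) and *Stat4* (1.13 ± 0.271). Here 7 of 8 pairs kept their order in all 3 uteri, and *Stat2* and *Tyk2* were not separated. *Jak2* stood first in place of *Stat3* and *Jak3* stood below *Tyk2*, while the other 7 kept their order among themselves.

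**Figure D4:**
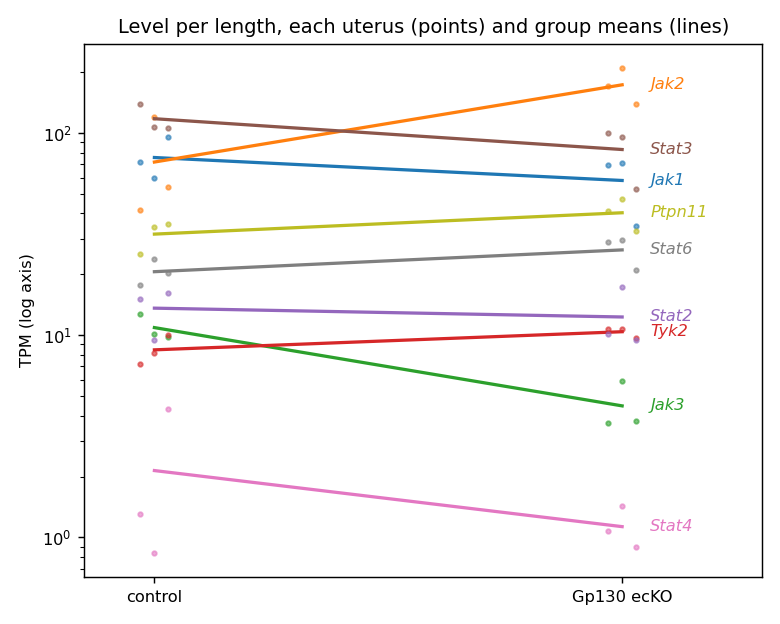
TPM of each member (log axis) in the control and *Gp130* ecKO, with points for uteri and lines joining the group means. The lines of *Jak2* and *Jak3* cross those of other members, and those of the other 7 do not cross each other.

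The genes around these kinases were taken from 12 lists of ligands, receptors, inhibitors, phosphatases and adaptors. Of 77 listed genes 65 were tested, 27 of them higher and 38 lower in *Gp130* ecKO, with a median log2 fold change of −0.25 against −0.05 over all tested genes. At FDR under 0.05 in edgeR's quasi-likelihood test, 2 of 65 rose and none fell, against 0.157% called over all tested genes. At an unadjusted p under 0.05 there were 27 of 65, against 25.0% over all tested genes. Those that rose were *Il20rb*, a receptor chain of the IL-20 cytokines that signals with JAK1, from 5.66, 6.63 and 6.4 CPM in the controls to 29.7, 26.2 and 34.3 (log2 fold change 2.27, adjusted p = 0.0334), and *Stat5b*, from 43.0, 46.4 and 43.3 to 102.0, 101.1 and 109.1 (1.23, adjusted p = 0.043). *Stat5a* stood at 1.98 (adjusted p = 0.0548). Neither call held in edgeR's test when any uterus other than control 2 was left out, with adjusted p of 0.0687 to 0.128 for *Il20rb* and 0.1 to 0.137 for *Stat5b*. Nor did they hold with the replicate block, at adjusted p of 0.0589 and 0.0817 from edgeR's quasi-likelihood test. The legacy form of that test also ended the call of *Stat5b* (0.0593). Without control 2, 12 pathway genes passed, in a fit that called 5.20% of all genes. *Stat5a* was among them, at an adjusted p of 0.0217 from edgeR, where leaving out any other uterus gave 0.112 to 0.142. Other tests passed more pathway genes, 17 with DESeq2 and 14 each with edgeR's exact and likelihood ratio tests. Over all 16605 genes these tests passed 2212, 1492 and 1578. *Stat5a*, *Osmr*, *Il6ra*, *Ifngr2*, *Socs3*, *Socs7* and *Irs1* passed in each of them.

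The GP130 family receptor list had 6 tested genes, of which *Il6st* is the deleted gene itself. All 6 had a negative log2 fold change, with a median of −0.71 that includes *Il6st*, and none was at FDR under 0.05. Among the other 5, *Lifr*, which pairs with GP130 to bind LIF, overlapped between the groups, at 263.4, 40.3 and 189.6 CPM against 227.6, 78.8 and 55.9 (−0.45, adjusted p = 0.723 with edgeR's quasi-likelihood test). *Osmr*, the oncostatin M receptor, had 128.8, 17.1 and 118.3 CPM in the controls against 6.19, 6.0 and 6.96 in the *Gp130* ecKO uteri (−3.78 on the log2 scale, adjusted p = 0.0648 with edgeR's quasi-likelihood test, 0.00323 without control 2, and 0.125 to 0.201 without any other uterus). *Il6ra* (−1.91, adjusted p = 0.0811, 0.0322 without control 2, and 0.148 to 0.247 without any other uterus) and *Il11ra1* (−0.64) also did not overlap between the groups. Of the ligands, *Lif* had 5.66, 11.3 and 29.5 CPM in the controls against 44.8, 48.8 and 38.3 in the *Gp130* ecKO uteri (1.52, adjusted p = 0.148), and its log2 fold change was 2.37 without control 3. *Clcf1*, a cytokine that acts through the CNTF receptor, had the smallest p of the list and the opposite sign, at 18.8, 5.63 and 39.9 CPM against 5.74, 3.11 and 6.3 (−2.08, adjusted p = 0.125 with edgeR). It was at −1.28 without control 3, and its adjusted p was 0.0314 without control 2 and 0.2 to 0.301 without any other uterus. *Ctf1*, cardiotrophin 1, was at 5.74, 25.6 and 3.53 CPM against 21.7, 23.4 and 25.7 (1.01, adjusted p = 0.365). Its control 2 lay with the *Gp130* ecKO uteri, and without it the log2 fold change was 2.36 (adjusted p = 0.0179 with edgeR, against 0.475 to 0.599 without any other uterus).

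The list of common gamma chain and IL-4 or IL-13 receptor genes had 7 tested members. All 7 had a negative log2 fold change, as *Jak3* did, with a median of −0.70 and none at FDR under 0.05. That median is the value of *Il13ra1*, a chain of the IL-4 and IL-13 receptor that works without the common gamma chain and JAK3. All 15 T and NK cell markers (median −0.38), 7 of 10 macrophage markers (−0.58) and all 12 stromal markers (−0.79) were lower too. *Il2rb* is on both this list and that of the T and NK cell markers. The part of such cells in the values of this list was not tested. *Il2rg*, the common gamma chain itself, had 35.6, 23.3 and 14.3 CPM in the controls against 6.65, 16.1 and 8.91 in the *Gp130* ecKO uteri (−1.21, adjusted p = 0.152 with edgeR's quasi-likelihood test), with the groups overlapping. *Il21r*, the IL-21 receptor, was at −1.06 (adjusted p = 0.209) and at −1.68 without *Gp130* ecKO 2. Of the receptors that signal through JAK2, *Csf2rb*, the common beta chain, was at −1.52 (adjusted p = 0.115), and at −2.16 without *Gp130* ecKO 2. *Ghr*, the growth hormone receptor, was at 0.56 and *Csf3r*, the G-CSF receptor, at −1.25, with overlap in each. *Csf3r* is itself 1 of the neutrophil markers, and the part of such cells in the *Csf2rb* and *Csf3r* values was not tested. *Ifngr2*, the interferon gamma receptor chain that carries JAK2, was at 0.86 (adjusted p = 0.0732 with edgeR, 0.0298 without control 2, and 0.136 to 0.213 without any other uterus), and *Ifngr1*, the chain that carries JAK1, at −0.29. *Ifngr2* had 82.0, 113.3 and 87.2 CPM in the controls against 166.5, 184.4 and 162.8 in the *Gp130* ecKO uteri. Of the chains that carry JAK1 or TYK2, *Ifnar2* (type I interferon) and *Il10rb* (IL-10 family) were each at −0.55, with adjusted p of 0.174 and 0.16 in edgeR's test, and *Il12rb1* (IL-12) was at −1.04 from under 2 CPM.

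Inhibitors had log2 fold changes of either sign. Of the 8 SOCS genes, which block JAKs or mark them for breakdown, 4 were higher and 4 lower. *Socs3* had 47.5, 29.5 and 67.2 CPM in the controls against 5.11, 10.8 and 6.92 in the *Gp130* ecKO uteri (−2.65 on the log2 scale, adjusted p = 0.0548 with edgeR's quasi-likelihood test, 0.0142 without control 2, and 0.096 to 0.154 without any other uterus). Its adjusted p was 5.56e-08 with DESeq2, 7.04e-07 with edgeR's exact test and 5.8e-07 with its likelihood ratio test. The quasi-likelihood test with no filter gave 0.0368. *Socs7* was at 1.07 (adjusted p = 0.0675 with edgeR, 0.0198 without control 2, and 0.126 to 0.205 without any other uterus) and *Socs2* at −0.94 (adjusted p = 0.109). The 4 PIAS genes, which restrain STATs in the nucleus, had a median of 0.20, with *Pias3* at 0.49, *Pias2* at 0.33 and *Pias1* at 0.07, a value whose sign changed with upper quartile scaling. Of the 5 tested phosphatases, *Ptpn2* was at −0.69 and *Ptpn6*, which encodes SHP1, at 0.53, and neither passed. *Ptprc*, the leukocyte phosphatase CD45, was at −0.76, and between −1.47 and −0.12 with single uteri left out. Of the 13 genes listed as SHP2 partners and adaptors, 7 were higher and 6 lower. *Irs1*, an adaptor of the insulin and IGF receptors that binds SHP2, had 9.26, 26.5 and 20.2 CPM in the controls against 83.4, 171.1 and 133.3 in the *Gp130* ecKO uteri (2.79, adjusted p = 0.0548 with edgeR's quasi-likelihood test, 0.0205 without control 2, and 0.112 to 0.142 without any other uterus), beside a *Ptpn11* level that overlapped. For *Irs1* the adjusted p was 5.61e-08 with DESeq2, 1e-06 with edgeR's exact test and 8.71e-07 with its likelihood ratio test. With no filter the quasi-likelihood test gave 0.0373. *Frs2*, an adaptor of FGF receptors, was at 0.70 (adjusted p = 0.0821) and *Sh2b3*, which restrains JAK2, at −0.77 (adjusted p = 0.118).

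Most listed targets of STAT3 had lower values in *Gp130* ecKO, and most of those of STAT2 had higher ones. Of 17 tested STAT3 targets 15 were lower in *Gp130* ecKO, with a median log2 fold change of −1.23, and 1 fell at FDR under 0.05. At an unadjusted p under 0.05 there were 11 of 17, and 14 of 17 did not overlap, against 25.0% and 31.3% of all tested genes. That gene, *Bcl3*, an IκB family coactivator, went from 54.0, 39.9 and 54.7 CPM to 2.03, 5.19 and 4.23 (−3.69, adjusted p = 0.0334 with edgeR's quasi-likelihood test), beside −0.82 for *Stat3* itself. Its adjusted p in the same edgeR test was 0.0687 to 0.128 when control 1, control 3, *Gp130* ecKO 2 or *Gp130* ecKO 3 was left out, and without control 2 there were 10 targets that passed, in the fit that called 5.20% of all genes. *Timp1*, an inhibitor of metalloproteases, was at −2.46 (adjusted p = 0.0598 with edgeR's quasi-likelihood test, 0.0174 without control 2, and 0.118 to 0.175 without any other uterus). Its adjusted p was 1.73e-06 with DESeq2, 2.25e-05 with edgeR's exact test and 1.94e-05 with its likelihood ratio test. Several of these targets had already been seen to differ in these uteri when the list was written, so the list is not independent evidence. All 8 endothelial markers (median −1.23), all 12 stromal markers (−0.79) and 4 of 5 tested neutrophil markers (−3.06) were also lower in *Gp130* ecKO. Of 12 epithelial markers, 11 were higher and 1 lower. The part of such cells in the values of the STAT3 targets was not tested. Of 18 STAT2 targets, interferon-stimulated genes, 13 were higher and 5 lower, with a median of 0.32, none at FDR under 0.05 and 1 of 18 at an unadjusted p under 0.05, against 25.0% of all tested genes. That was *Oas2* (−1.53, adjusted p = 0.192 with edgeR, 0.0155 without control 2, and 0.296 to 0.418 without any other uterus). Only *Irf9* among them did not overlap, 1 of 18 against 31.3% of all tested genes, at 70.0, 75.2 and 52.9 CPM in the controls against 81.1, 86.7 and 80.3 in the *Gp130* ecKO uteri. *Xaf1* was at 0.39 with overlap. Of 10 tested STAT6 targets 8 were lower, with a median of −0.27 and none at FDR under 0.05, where *Stat6* was at 0.29. *Mrc1*, the macrophage mannose receptor, was at −1.28 (adjusted p = 0.0804) and *Gata3* at −1.57 (adjusted p = 0.163), which was −0.92 without control 3. *Mrc1* is itself among the macrophage markers, and the part of such cells in its value was not tested. *Il4ra*, the IL-4 receptor, was at −0.32 (adjusted p = 0.263). Of 5 tested STAT4 targets 4 were lower, with a median of −0.56, and *Hlx* had the lowest p (−1.52, adjusted p = 0.142, and −0.99 without control 1). *Il18rap*, an IL-18 receptor chain, was at −1.01 and between −1.95 and −0.32 with single uteri left out, and *Furin* was at 0.22.

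**Figure D5:**
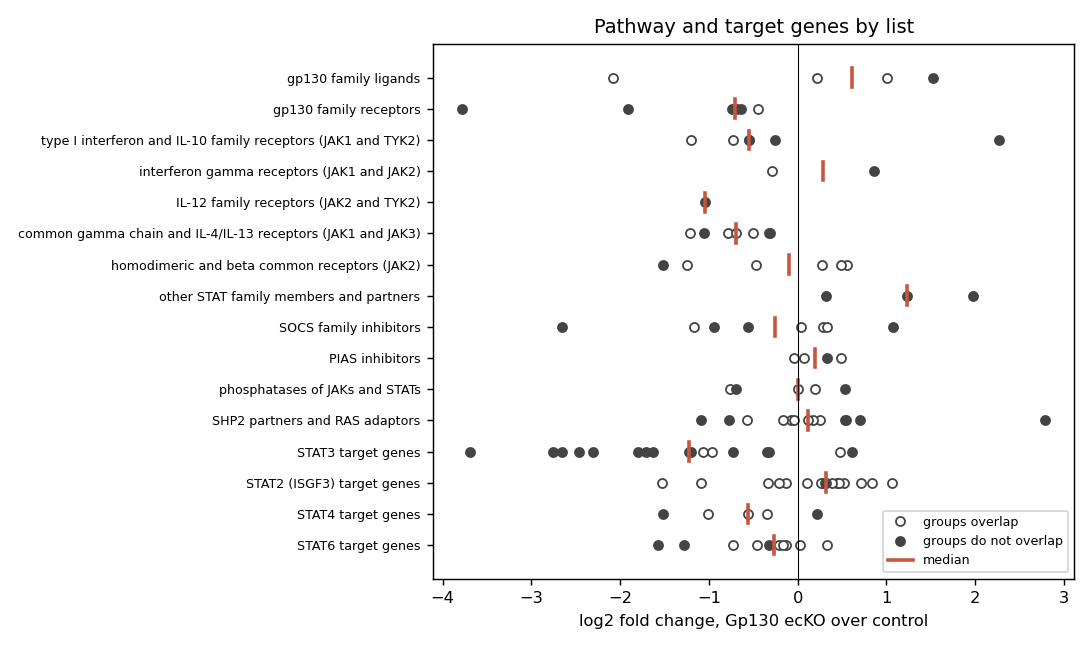
Log2 fold change of each tested pathway and target gene by list, filled where the groups did not overlap in CPM and open where they did, with the median of each list in red. The STAT3 targets lie furthest to the left with a median of −1.23, and those of STAT2 lie around 0.32.

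The genes whose log2 CPM over the 6 uteri was most like that of each member, among 10259 genes with a mean CPM of at least 10, are a description with no test, since group and depth are shared by all of them. They were *Zswim1* (r = 0.998) for *Jak2*, *Rilpl1* (0.996) and *Fli1* (0.9946) for *Jak3*, *Csnk1e* (0.9874) and *Ctdp1* (0.9873) for *Jak1*, and *Katna1* (0.9855) and *Eif2ak4* (0.9804) for *Tyk2*. For *Stat3* they were *Paf1* (0.9943) and *Camk2n1* (0.9935), for *Stat6* *Sh3tc2* (0.9961) and *Elf3* (0.9953), for *Stat2* *Parp14* (0.9523) and *Ckap4* (0.9502), and for *Ptpn11* *Cep63* (0.9957) and *Tubb2a* (0.9884). For *Stat4*, which is itself under that level, they were *Sbf1* (0.9818) and *AW112010* (0.9817). The lowest were those of *Stat2*.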

How the data were processed

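RNA from 6 whole uteri, 3 control and 3 *Gp130* ecKO, was sequenced by the authors from poly(A) libraries that keep strand, with single 75 bp reads. Per the labels and methods, reads were trimmed (fastp 0.23.2), cleared of ribosomal RNA, mapped to GRCm39 (STAR 2.7.10a) and assigned to genes (RSEM 1.3.3). The deposited expected counts are estimates that need not be whole and are not normalized. The deposited TPM and FPKM are the authors' levels scaled for length and depth. TPM was used to compare genes, and FPKM was not used. The deposited gene lengths in bases are RSEM's means over transcripts. The annotation version and the use of strand in counting are not given in the sources used here.

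Rounded expected counts were fitted in edgeR 4.0.16 (R 4.3.3) with filterByExpr, TMM scaling and the quasi-likelihood F test. P-values were adjusted by Benjamini-Hochberg over the 16605 genes kept. A gene was called at FDR under 0.05 and more than 2-fold. The SE was obtained from the log2 fold change and the F statistic. For single genes, log2(CPM + 0.5) was compared by exact permutation, two-sided. Alternatives were other tests (DESeq2 1.42.0 among them), scalings and filters, unrounded counts, a replicate block, and leaving out each uterus. P-values set the difference between the groups against the spread between these uteri. Gene symbols, coordinates and transcripts were taken from GENCODE M39 (GRCm39), where 56017 of the 56748 identifiers were found. The scripts were tested on simulated data.

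The members and all lists were chosen with earlier results of these data known. Named are the 9 members, *Il6st*, in each pathway and target list the genes at FDR under 0.05 and the 3 with the smallest p, and for each member the 2 genes most like it. For *Jak2*, 1 of these is not reported here. *Lifr* and genes that share transcript sequence or overlap a promoter window of a member were named after their values were seen.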

Additional observations from a re-analysis of the deposited data

How the results depend on the processing

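Of 144 values of the 9 members under the 16 alternatives, 137 kept their direction and side of the threshold, 6 passed it newly and 1 reversed, *Ptpn11* at −0.012 with upper quartile scaling. Members called, and members at FDR under 0.05, numbered 0 in edgeR's quasi-likelihood test, 2 with DESeq2, 1 with the exact test, 1 with the likelihood ratio test, and 0 to 2 with each uterus left out, 2 only without control 2. Members without overlap numbered 4 (31.3% of all tested genes), 3 with upper quartile scaling and 3 with total counts only, and 4 to 7 with each uterus left out, 7 without control 2 (45.6% of all tested genes). For the other settings no share of all tested genes is given, so nothing is read from those counts. Pathway genes at FDR under 0.05 numbered 2, against 17 with DESeq2, 14 with the exact and with the likelihood ratio test, 1 with the legacy form, 5 with no filter, and 0 to 12 with each uterus left out, 12 without control 2. Target genes numbered 1, against 11 with DESeq2, 10 with the exact test, 11 with the likelihood ratio test, 4 with no filter, and 0 to 10 with each uterus left out, 10 without control 2. *Pias1* reversed to −0.001 with upper quartile scaling and to −0.024 without *Gp130* ecKO 1, within −0.024 to 0.216 over the uteri left out. Over all genes the calls numbered 26, against 1542 with DESeq2, 1252 with the exact test, 1317 with the likelihood ratio test, 7 with the legacy form, 105 with no filter, and 1 to 892 with each uterus left out. At FDR under 0.05 alone, as for the pathway and target counts, there were 26 genes in the main fit. DESeq2 gave 2212, the exact test 1492, the likelihood ratio test 1578 and the fit without control 2 gave 923. The cause of these changes was not tested. Of 703 values of 44 named list genes, 622 were unaffected in direction and side, 61 passed newly, 18 no longer passed and 2 reversed.

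Deviations of same-numbered uteri from their group means correlated at 0.102, 0.0615 and −0.178. The labels do not state whether the numbers pair the uteri. With so few uteri in each group, these correlations cannot decide it. With the replicate block, 0 members, 1 pathway gene and 0 target genes had an FDR under 0.05, and 6 genes were called in all. The pathway gene was *Irs1* (adjusted p = 0.0327 in edgeR), while *Il20rb* (0.0589), *Stat5b* (0.0817) and *Bcl3* (0.0586) no longer passed.

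*Stat4* had the fewest expected counts of the 9 members, 18 to 58 per uterus, so its relative counting error was the largest.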

Other observations

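The balance of *Stat3* against its neighbours in the pathway was computed from TPM after the values had been seen, so the ratios are a description with no test. *Stat3* per *Il6st* was 1.3, 0.906 and 1.09 in the controls against 1.29, 1.2 and 0.771 in the *Gp130* ecKO uteri, and the groups overlapped. *Jak2* per *Il6st* was 0.391, 1.01 and 0.553 against 2.19, 2.62 and 2.04, and *Stat3* per *Jak2* was 3.34, 0.894 and 1.97 against 0.587, 0.457 and 0.378, without overlap in either, as the levels of the single genes already fix. *Stat3* per summed *Stat5a* and *Stat5b* was 8.95, 4.79 and 5.05 against 1.83, 1.43 and 0.791, again without overlap. *Stat3* exceeded the STAT5 sum in every uterus except *Gp130* ecKO 3. *Stat3* per *Jak1* overlapped between the groups, at 1.94, 1.79 and 1.12 against 1.45, 1.35 and 1.52.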
